A study of Mus musculus with 6 samples.

Results

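The genes described here encode the collagens, the secreted proteins that make up most of the fibrous scaffold around cells. Every row of the deposited gene table whose symbol has the form of a collagen chain name was taken, which gave 44 genes of 55401 in the table. The rule read the symbol alone. The samples were C2C12 myotubes, multinucleate muscle cells formed by a mouse myoblast line in medium with 2% horse serum. Cells received 100 pmol of an siRNA for 3 days. The control group received GL2 siRNA, directed against firefly luciferase, and the other group received siRNA against SENP7, a protease that takes the small protein SUMO off other proteins. Each of the 2 groups had 3 libraries of polyadenylated RNA, stated to be biological replicates. C2C12 is a clonal line kept without the fibroblasts, vessels and nerves of a muscle, and no animal material was part of the comparison.

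A collagen molecule consists of chains wound into a triple helix, and the type of collagen is set by which chains combine. Fibrillar collagens build the banded fibrils of tissue, and type IV collagens form the sheet of the basement membrane that surrounds each muscle fibre. Network-forming collagens assemble lattices in growth cartilage and under endothelia, and type VI collagen forms beaded filaments that lie next to the muscle basement membrane. Fibril-associated collagens with interrupted helices (FACIT) decorate fibrils, and transmembrane collagens and multiplexins sit at cell surfaces and basement membranes. The chains are modified and folded in the endoplasmic reticulum, trimmed outside the cell and crosslinked by lysyl oxidases.

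Values are normalized counts, which are read counts divided by 1 factor per library, so that a normalized count of 1 was close to 1 read in every library. Levels of different genes were compared only per kb of exon. The libraries held between 25223218 and 30865945 reads assigned to genes. Senp7 itself read 556, 616 and 649 in control libraries 1, 2 and 3 and 275, 279 and 347 in SENP7 siRNA libraries 1, 2 and 3. The groups did not overlap, and Senp7 was 2.02-fold lower with its siRNA (log2 fold change -1.02 ± 0.11 SE, adjusted p = 0.000428). Library 3 stood apart from the other two in both groups. The chi-square per gene between control libraries 1 and 2 was 7.26, against 36.87 and 21.9 for the pairs with control library 3. For the SENP7 siRNA group it was 1.70 between libraries 1 and 2, against 13.39 and 12.26 for the pairs with library 3.

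Of the 35 collagen genes tested, 14 rose with SENP7 siRNA, 5 fell and 16 did not pass the test. The 14 that rose were Col24a1, Col3a1, Col27a1, Col11a2, Col4a1, Col8a2, Col6a1, Col6a2, Col14a1, Col19a1, Col20a1, Col15a1, Col7a1 and Col26a1. The 5 that fell were Col10a1, Col18a1, Col13a1, Col22a1 and Col8a1. The test was limma on log2(normalized count + 1) over the 14668 genes with at least 10 normalized counts in at least 3 libraries, with a threshold of 0.05 on the adjusted p. Over all genes tested 20.9% were called, 10.2% higher and 10.7% lower, against 54.29% of the collagen genes tested. The 2 groups did not overlap for 25 of the 35 collagen genes, 18 of them higher, and for 39.6% of all genes tested. The median log2 fold change was 0.43 over the 35 collagen genes and -0.0025 over all genes tested. Among the 35 collagen genes tested, 7 rose and 3 fell past the threshold by more than 1 on the log2 scale. Of all 14668 genes tested, 672 did so in either direction. When control library 3 was left out, 17 collagen genes rose and 8 fell, and when both libraries numbered 3 were left out, 18 rose and 9 fell. The calls over all 14668 genes went up as well in these runs, from 3062 to 4702 and 4949.

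The other 9 collagen genes were too low to be tested, and 2 of them, Col4a4 and Col6a6, had no read in any library. A count of 0 in all 6 libraries allows up to 3 of 165448732 reads (counting error only). Of the 35 tested, only Col15a1 met the minimum through the SENP7 siRNA libraries alone, so its change in that direction was favoured by the filter. Col19a1 and Col9a3 met it in 2 and 1 control libraries and in 3 SENP7 siRNA libraries, so a rise was favoured for them too. In bulk RNA, a change in the number of cells that express a gene and a change in RNA per cell cannot be told apart.

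**Figure D1:**
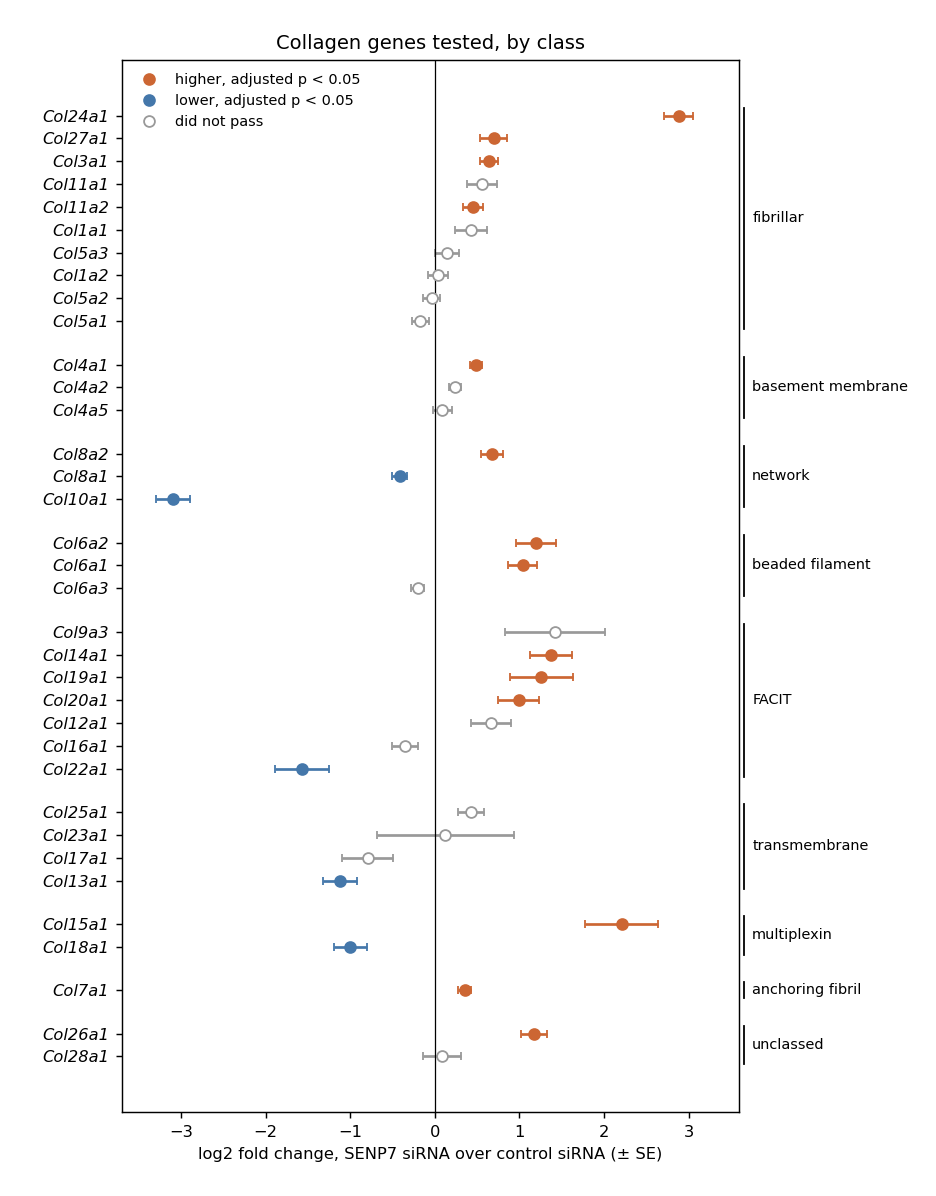
Log2 fold change (SENP7 siRNA over control siRNA, ± SE) of the 35 collagen genes tested, by class; the horizontal axis is in log2 units and filled points passed the test. Col24a1 lies farthest to the right at 2.88 and Col10a1 farthest to the left at -3.09.

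Collagen RNA was a larger share of the libraries after SENP7 siRNA. All collagen genes together took 1.466%, 1.385% and 1.267% of the assigned reads in control libraries 1, 2 and 3 and 1.64%, 1.628% and 1.82% in SENP7 siRNA libraries 1, 2 and 3. Every SENP7 siRNA library was above every control library, with means of 1.37% ± 0.10 and 1.70% ± 0.107 (SD, n = 3). Fibrillar collagens made up most of that share in both groups, 76.56% and 75.97% of collagen reads on average. The largest gain of any member was that of Col3a1, from a mean of 86967 normalized counts in control libraries to 136230 with SENP7 siRNA. The sums therefore lean on this gene, and the share without it was not computed. Basement membrane collagens went from 0.0789% ± 0.00462 to 0.103% ± 0.00235 of all reads, and network collagens from 0.0312% ± 0.00174 to 0.0249% ± 0.00244 (SD, n = 3). A sum over these members was given no test.

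The order of the levels per kb was led by the fibrillar chains in both groups. Col3a1 was at 8860 ± 559 normalized counts per kb in control libraries and 13878 ± 1706 with SENP7 siRNA (SD, n = 3), rank 91 and rank 47 among all genes. Col1a1 followed at 6701 ± 1909 and 8762 ± 539 per kb. Col5a1 (5387 ± 642), Col1a2 (5320 ± 852) and Col5a2 (4176 ± 477) came next in control libraries. Col1a1 and Col5a1, and Col5a1 and Col1a2, differed by less than the larger SD of the pair, and the ranges of Col1a2 and Col5a2 overlapped. Col6a1 went from 2308 ± 633 to 4660 ± 669 per kb and from rank 521 to rank 203, and Col6a2 from rank 1695 to rank 657. Col6a1 was below Col5a2 in every control library and above it in every SENP7 siRNA library, where their means were 4660 and 4055 per kb. Col18a1 moved the other way, from rank 772 to rank 1700.

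**Figure D2:**
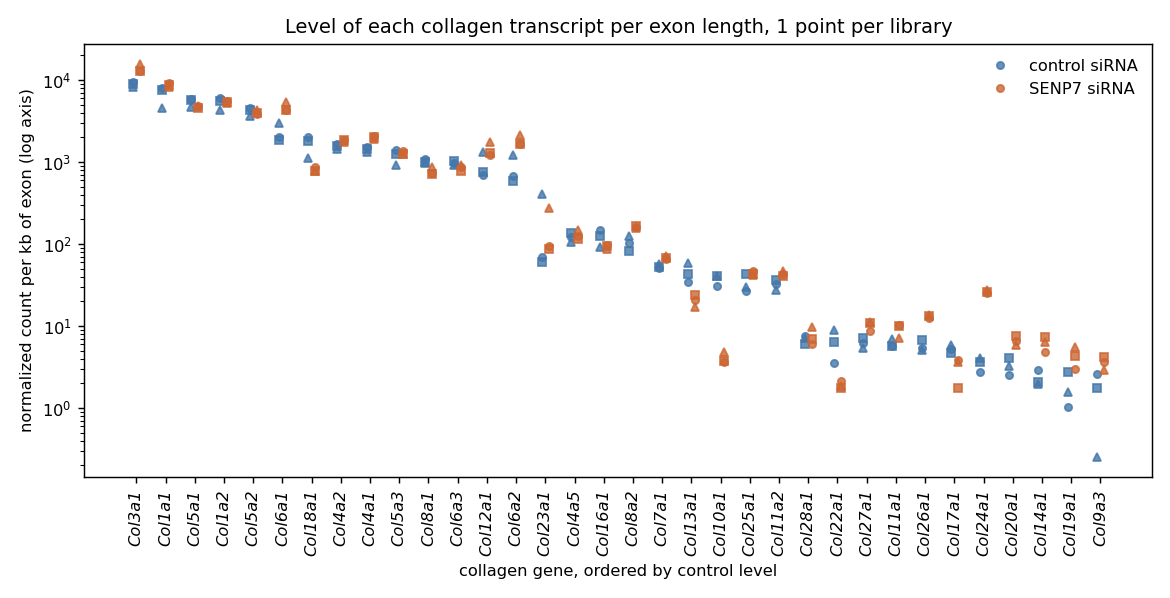
Normalized count per kb of exon (log axis) of the collagen genes with a control mean of at least 1 per kb, in the order of that mean along the horizontal axis; each point is a library (circle, square and triangle for libraries 1, 2 and 3) and colour gives the group. Col3a1 is highest in both groups, and Col24a1 and Col10a1 show the widest separation between groups.

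Of the 10 fibrillar collagen genes tested, 4 rose, none fell and 6 did not pass, with a median log2 fold change of 0.44. Col24a1, a fibrillar chain known from developing bone and cornea, had the largest rise of any collagen gene. It read 21.2, 27.8 and 31.1 normalized counts in control libraries 1, 2 and 3 and 193, 200 and 210 in SENP7 siRNA libraries 1, 2 and 3. All 3 SENP7 siRNA libraries were far above all control libraries. The means were 26.7 ± 5.07 and 201.0 ± 8.92 (SD, n = 3), a 7.53-fold rise (log2 fold change 2.88 ± 0.17 SE, adjusted p = 2.44e-05). These values rested on 78 reads in the control group and 626 in the SENP7 siRNA group. It passed under each alternative run.

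Col3a1, whose chains form the type III collagen of elastic and healing tissue and of muscle, was the most abundant collagen RNA. Its normalized counts were 92417, 87032 and 81453 in control libraries and 126028, 127111 and 155552 in SENP7 siRNA libraries. Every SENP7 siRNA library was above every control library, and library 3 was the lowest control and the highest of the other group. The rise was 1.57-fold (log2 fold change 0.64 ± 0.11 SE, adjusted p = 0.00397), and it too passed under each alternative run.

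The upstream sequences of Col24a1 and Col3a1 are shown because these are the largest and the most abundant of the fibrillar rises. Each is the 250 bases before the gene start, from RefSeq on GRCm38.p6, 5′ to 3′ on the gene's strand, which is plus for both. The Col24a1 window is chr3:145292222-145292471 and lies just before the first exon. The Col3a1 window is chr1:45311288-45311537, also before the first exon. Capitals mark matches on either strand to 4 motifs: the box named CCAAT, the TATA box core TATAAA, the GC box core GGGCGG, and CAGCTG as a form of the E-box that myogenic factors bind.
Col24a1: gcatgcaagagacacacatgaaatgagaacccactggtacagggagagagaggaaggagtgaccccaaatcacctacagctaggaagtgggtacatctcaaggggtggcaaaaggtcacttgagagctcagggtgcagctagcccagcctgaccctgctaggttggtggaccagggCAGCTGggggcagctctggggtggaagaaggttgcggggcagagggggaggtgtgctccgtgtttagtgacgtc
Col3a1: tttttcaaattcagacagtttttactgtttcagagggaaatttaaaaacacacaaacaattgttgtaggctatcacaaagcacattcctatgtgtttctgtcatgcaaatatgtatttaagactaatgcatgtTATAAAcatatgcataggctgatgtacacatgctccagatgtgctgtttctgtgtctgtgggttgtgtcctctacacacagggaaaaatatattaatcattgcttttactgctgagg
Col24a1 held 1 CAGCTG, starting 74 bases before the gene start, and Col3a1 held 1 TATAAA, starting 117 bases before it. Of all 32851 RefSeq windows of this length, 13% held CAGCTG and 12.4% held TATAAA. For the 38 windows of the 35 collagen genes with an entry these shares were 15.8% and 13.2%. CCAAT was in 34.2% of the collagen windows against 33.8% of all windows, and GGGCGG in 57.9% against 32.7%. A match is a description of the letters in the window.

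Col27a1 and Col11a2, both of which belong to cartilage-type fibrils, rose by less. Col27a1 read 81.6, 92.3 and 70.0 in control libraries and 113, 140 and 144 in SENP7 siRNA libraries, without overlap (log2 fold change 0.70 ± 0.16 SE, adjusted p = 0.0145). Without SENP7 siRNA library 2 or 3 its adjusted p was 0.0669 or 0.053, in a range from 0.00504 to 0.0669 over the alternatives. Col11a2 read 222, 248 and 189 in control libraries and 300, 278 and 319 in SENP7 siRNA libraries, again without overlap (0.45 ± 0.12 SE, adjusted p = 0.0272). Leaving out control library 1 or SENP7 siRNA library 1, 2 or 3 gave it adjusted p = 0.0589, 0.0916, 0.058 and 0.0891, in a range from 0.0131 to 0.0916. Its log2 fold change was 0.30 without both libraries numbered 3. Col11a1, the partner of Col11a2, read 72.6, 73.4 and 89.5 against 132, 127 and 91.9 and stood at the threshold (0.56 ± 0.17 SE, adjusted p = 0.0512). Col11a1 passed in 9 of 17 alternatives, among them edgeR (0.0491), edgeR with TMM (0.0469) and DESeq2 (0.0455) with all libraries kept. Its adjusted p without control library 3 was 0.0165, and without SENP7 siRNA library 3 it was 0.0217. The range was from 0.00114, without both libraries numbered 3, to 0.184.

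The major chains of type I and type V collagen did not pass the test. Col1a1 and Col1a2 encode the pair of chains that make up type I collagen, the main fibre of tendon, bone and skin. Col1a1 read 53078, 49174 and 29692 in control libraries and 60844, 57863 and 53801 in SENP7 siRNA libraries. Control library 3 was far below the other controls, and the groups did not overlap (log2 fold change 0.43 ± 0.19 SE, adjusted p = 0.15). Without both libraries numbered 3 its adjusted p was 0.0109, in a range from 0.0109 to 0.461 over the alternatives. Col1a2 read 74446, 69687 and 54203 against 68293, 67367 and 66005, and the groups overlapped (0.04 ± 0.12 SE, adjusted p = 0.857). Its sign turned without control library 3 (-0.0998) and without both libraries numbered 3 (-0.0867).

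Type V chains set the diameter of type I fibrils. Col5a1 read 49667, 48880 and 39787 in control libraries and 41388, 39108 and 41875 in SENP7 siRNA libraries, and control library 3 lay within the SENP7 siRNA range (-0.17 ± 0.10 SE, adjusted p = 0.264). Without control library 3 its adjusted p was 0.00788, in a range from 0.0011 to 0.548. Col5a2 differed by -0.04 ± 0.10 SE on the log2 scale (adjusted p = 0.825) and Col5a3 by 0.15 ± 0.14 SE (adjusted p = 0.497), both with overlapping groups. Both crossed 0 when a control library was left out, Col5a2 to 0.0263 without library 1 and Col5a3 to -0.0331 without library 3. Without both libraries numbered 3, Col5a2 had adjusted p = 0.0153, in a range from 0.0153 to 0.985. Col2a1, the cartilage fibril chain, was not tested, with 6 reads in the control group and 20 in the SENP7 siRNA group.

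**Figure D3:**
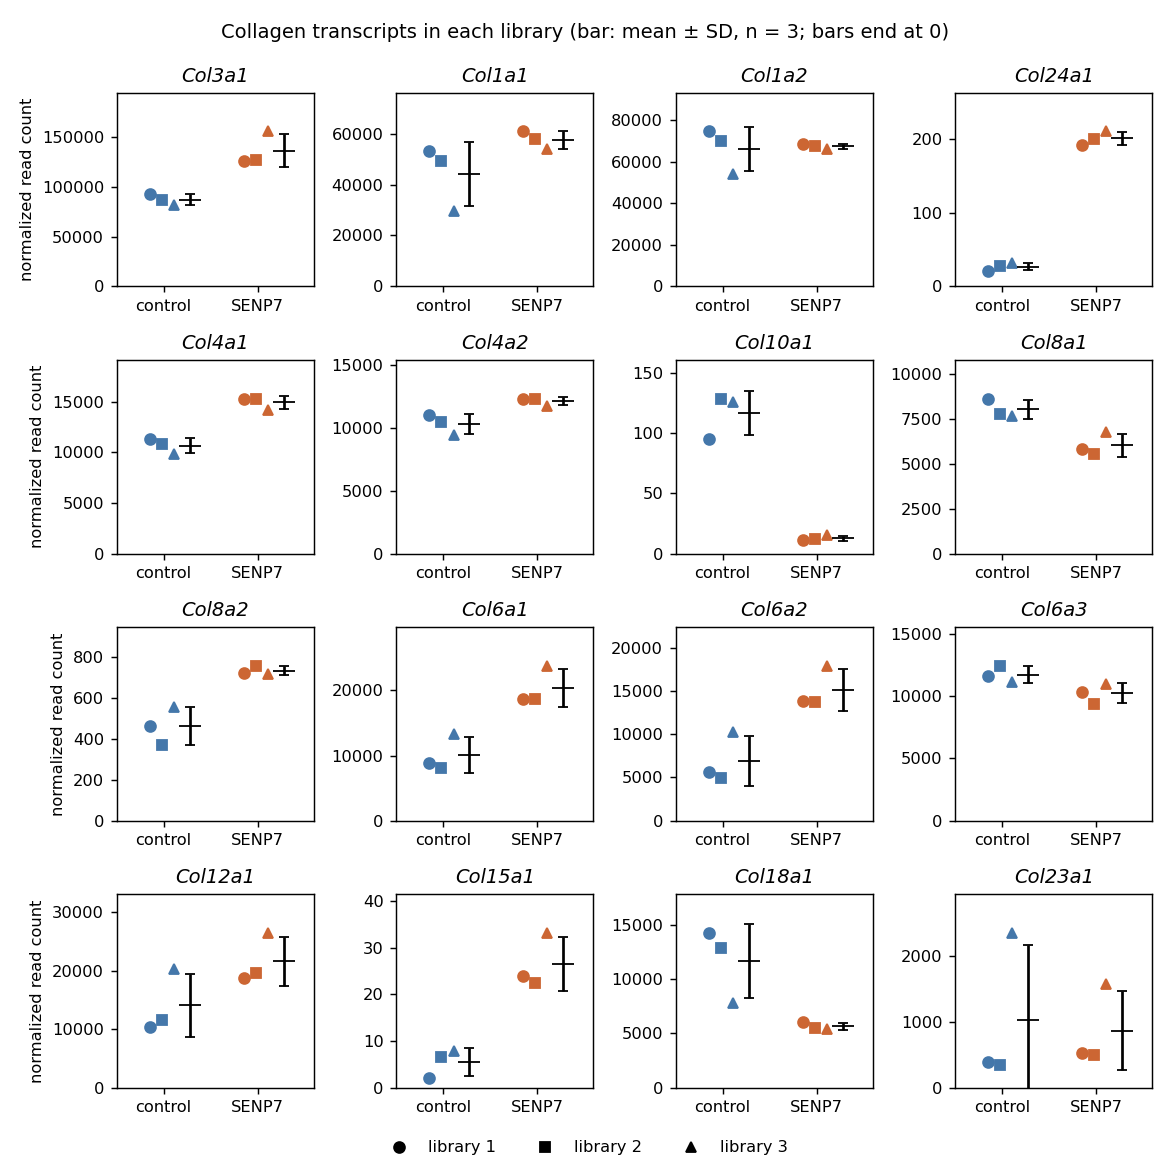
Normalized counts in each library (points; bar: mean ± SD, n = 3 per group; vertical axes are linear from 0 and error bars end there) for 16 collagen genes. The 3 SENP7 siRNA libraries lie above all controls for Col24a1, Col3a1, Col6a1 and Col6a2, and below them for Col10a1 and Col18a1.

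Among the basement membrane collagens, Col4a1 rose and its partner Col4a2 stood at the threshold. These chains form the ubiquitous type IV molecule, and their genes lie head to head on chromosome 8, with first exons that overlap by 22 bases on opposite strands. Col4a1 read 11361, 10839 and 9837 in control libraries and 15333, 15294 and 14237 in SENP7 siRNA libraries. Every SENP7 siRNA library was above every control library, by 1.40-fold on the means (log2 fold change 0.49 ± 0.08 SE, adjusted p = 0.00259), and the call held in each alternative. Col4a2 read 11032, 10509 and 9429 against 12313, 12342 and 11784, also without overlap, 1.18-fold on the means (0.24 ± 0.07 SE, adjusted p = 0.0517). It passed in 9 of 17 alternatives. With all libraries kept these included DESeq2 (0.0147), edgeR with TMM (0.0486), limma-voom (0.0494), scaling to library totals (0.0227), quantile normalization (0.0123) and no filter (0.023). Its adjusted p was 0.0345 without control library 1 and 0.0483 without control library 3, in a range from 0.0123 to 0.173. The authors' deposited table gave Col4a2 an adjusted p of 0.0357.

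The other type IV chains were low. Col4a5, a chain best known from the kidney filter, read 818, 918 and 719 in control libraries and 838, 773 and 1003 in SENP7 siRNA libraries (0.09 ± 0.12 SE, adjusted p = 0.628). The groups overlapped, and without control library 3 the log2 fold change was -0.00036. Col4a6 had 7 reads in each group, Col4a3 had 1 read in the control group and none in the other, and Col4a4 had none, so that these 3 were not tested.

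All 3 network-forming collagen genes passed the test, 1 of them higher and 2 lower. Col10a1, the growth plate chain made by hypertrophic chondrocytes, had the largest fall of any collagen gene. It read 95.8, 129 and 126 in control libraries 1, 2 and 3 and 11.5, 11.8 and 15.2 in SENP7 siRNA libraries 1, 2 and 3. No SENP7 siRNA library came near a control library. The means were 117.1 ± 18.5 and 12.8 ± 2.03 (SD, n = 3), 9.13-fold lower (log2 fold change -3.09 ± 0.20 SE, adjusted p = 3.98e-05), from 341 and 40 reads, and the call held in each alternative. Of the 3130 exon bases of Col10a1, 18 overlap exons of Nt5dc1 on the other strand, whose mean was 418 normalized counts.

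The chains of type VIII collagen, a lattice known from the cornea and vessel walls, went in opposite directions. Col8a1 read 8637, 7778 and 7686 in control libraries and 5816, 5535 and 6752 in SENP7 siRNA libraries, all lower (-0.42 ± 0.09 SE, adjusted p = 0.0102). Without SENP7 siRNA library 1 or 2 its adjusted p was 0.0513 or 0.0542, in a range from 4.31e-05 to 0.0542. Col8a2 read 464, 369 and 555 in control libraries and 722, 755 and 713 in SENP7 siRNA libraries, all higher (0.68 ± 0.13 SE, adjusted p = 0.00751), and its call held in each alternative. Per kb, the ratio of Col8a1 to Col8a2 was 10.68, 12.07 and 7.931 in control libraries and 4.615, 4.2 and 5.425 in SENP7 siRNA libraries. Col8a1 was thus the more abundant of the pair in every library, by a smaller margin with SENP7 siRNA.

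The upstream windows of the 3 network genes are shown because these genes include the largest fall and a pair of partner chains that moved apart. Col10a1 is chr10:34389731-34389980 on the plus strand, Col8a1 is chr16:57754738-57754987 on the minus strand and Col8a2 is chr4:126286544-126286793 on the plus strand, all on GRCm38.p6 from RefSeq. All lie before the first exon, except that the last base of the Col8a2 window is the first base of its gene in GENCODE M21. Capitals mark the same 4 motifs on either strand.
Col10a1: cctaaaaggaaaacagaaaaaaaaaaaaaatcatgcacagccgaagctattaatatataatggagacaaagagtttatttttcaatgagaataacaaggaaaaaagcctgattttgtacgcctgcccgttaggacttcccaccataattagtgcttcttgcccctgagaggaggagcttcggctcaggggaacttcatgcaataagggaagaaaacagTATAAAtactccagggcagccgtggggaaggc
Col8a1: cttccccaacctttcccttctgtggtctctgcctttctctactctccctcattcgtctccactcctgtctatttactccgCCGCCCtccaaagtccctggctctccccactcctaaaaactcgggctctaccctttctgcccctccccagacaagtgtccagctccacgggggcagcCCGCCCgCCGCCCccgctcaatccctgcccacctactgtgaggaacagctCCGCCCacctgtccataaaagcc
Col8a2: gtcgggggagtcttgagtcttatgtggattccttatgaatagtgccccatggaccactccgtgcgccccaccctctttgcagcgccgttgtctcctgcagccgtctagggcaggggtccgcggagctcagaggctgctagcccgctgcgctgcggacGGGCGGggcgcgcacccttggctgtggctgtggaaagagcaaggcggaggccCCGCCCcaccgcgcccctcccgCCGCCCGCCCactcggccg
Col10a1 held 1 TATAAA, starting 32 bases before the gene start. Col8a1 and Col8a2 held 4 matches to GGGCGG each, the last of them starting 23 and 15 bases before the start. The windows had GC contents of 41.6%, 60.8% and 70%.

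Among the chains of type VI collagen, Col6a1 and Col6a2 rose and Col6a3 did not pass the test. The 3 chains combine in 1 molecule, and loss of any of them is known to cause muscular dystrophy in people. Col6a1 read 8883, 8164 and 13284 in control libraries and 18762, 18677 and 23792 in SENP7 siRNA libraries, 2.02-fold higher on the means (log2 fold change 1.04 ± 0.17 SE, adjusted p = 0.00386). Col6a2 read 5645, 4893 and 10208 against 13790, 13736 and 17925, 2.19-fold higher (1.20 ± 0.24 SE, adjusted p = 0.00866). For both genes library 3 was the highest of its group and the groups did not overlap. With no filter on low values the adjusted p was 0.0771 for Col6a1 and 0.131 for Col6a2, the highest values over the alternatives. The lowest were 4.34e-08 and 3.01e-08, without both libraries numbered 3.

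Col6a3 read 11608, 12432 and 11124 in control libraries and 10319, 9363 and 10951 in SENP7 siRNA libraries, each below every control library (-0.20 ± 0.08 SE, adjusted p = 0.106). Without control library 3 its adjusted p was 0.0311, in a range from 0.00362 to 0.358. The ratio of Col6a3 to Col6a1 per kb was 0.4785, 0.5575 and 0.3066 in control libraries and 0.2014, 0.1835 and 0.1685 in SENP7 siRNA libraries, so every SENP7 siRNA library was lower. The ratio of Col6a1 to Col6a2 was 2.991, 3.172 and 2.474 against 2.586, 2.585 and 2.523, and the groups overlapped. Col6a1 and Col6a2 are neighbours on chromosome 10, 85161 bases apart and in the same direction, while Col6a3 is on chromosome 1. Col6a4, Col6a5 and Col6a6, which lie together on chromosome 9, were not tested, with 19, 5 and 0 reads in the control group and 27, 26 and 0 in the SENP7 siRNA group.

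Other partner chains were set side by side in the same way. The ratio of Col1a1 to Col1a2 per kb was 1.35, 1.336 and 1.037 in control libraries and 1.687, 1.626 and 1.543 in SENP7 siRNA libraries, without overlap. The ratio of Col4a1 to Col4a2 was 0.9133, 0.9146 and 0.9251 against 1.104, 1.099 and 1.071. It was below 1 in every control library and above 1 in every SENP7 siRNA library, with little spread within a group. The ratio of Col5a1 to Col5a2 was 1.277, 1.314 and 1.278 against 1.246, 1.161 and 1.125, lower in every SENP7 siRNA library. The ratios of Col5a3 to Col5a2 and of Col11a1 to Col11a2 overlapped between the groups. So did the ratio of Col3a1 to Col1a1, which belong to different collagen types and are not partner chains. A ratio within a library shows unequal change of the 2 chains and does not say which of them changed.

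**Figure D4:**
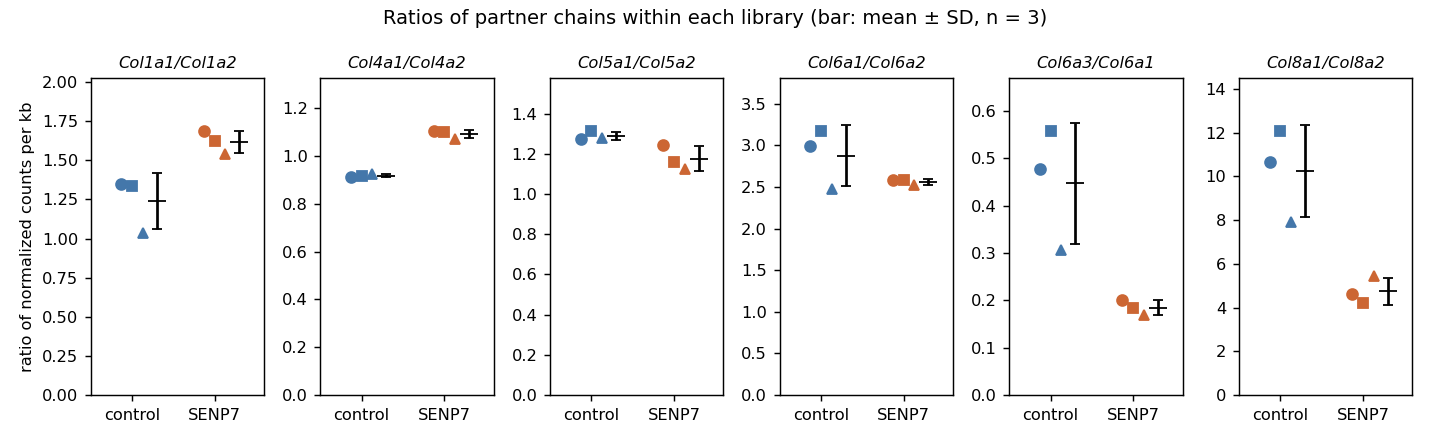
Ratio of partner collagen chains (normalized count per kb over normalized count per kb) in each library, points by group. The groups do not overlap for Col1a1 over Col1a2, Col4a1 over Col4a2, Col6a3 over Col6a1 and Col8a1 over Col8a2, and they overlap for Col6a1 over Col6a2.

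Of the 7 FACIT genes tested, 3 rose and 1 fell. Col14a1, a chain that binds fibrils through decorin, read 20.2, 14.5 and 13.6 in control libraries and 33.7, 51.4 and 44.5 in SENP7 siRNA libraries, without overlap (log2 fold change 1.37 ± 0.25 SE, adjusted p = 0.00552). Col20a1 read 13.1, 21.1 and 16.5 against 33.7, 38.5 and 30.3 (0.99 ± 0.24 SE, adjusted p = 0.0202). Col19a1 read 7.06, 18.9 and 10.7 against 20.4, 30.0 and 37.9 (1.26 ± 0.37 SE, adjusted p = 0.0426). In both genes every SENP7 siRNA library was above every control library, from 49 and 106 reads for Col20a1 and 35 and 91 for Col19a1 (control and SENP7 siRNA).

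The calls of Col20a1 and Col19a1 were lost under several alternatives. Col20a1 had adjusted p = 0.0548 without control library 1 and 0.071 and 0.0878 without SENP7 siRNA libraries 1 and 2, in a range from 0.0123 to 0.0878. Col19a1 had 0.114 without control library 1 and 0.0527, 0.124 and 0.142 without SENP7 siRNA libraries 1, 2 and 3, and 0.0568 after quantile normalization with all libraries, in a range from 0.00903 to 0.142. The authors' deposited table gave these genes adjusted p-values of 0.0827 and 0.0836, and with Col4a2 they were the 3 collagen genes whose call differed from it. Col20a1 shares 79 exon bases with the gene BX649560.1 on its own strand, whose mean was 353 normalized counts, and reads of the 2 genes could be split between them.

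Col22a1, the chain of the junction between muscle and tendon, fell. It read 32.3, 59.0 and 81.7 in control libraries and 19.5, 16.0 and 17.1 in SENP7 siRNA libraries, with wide spread among the controls and all SENP7 siRNA libraries below them. The fall was 3.29-fold (log2 fold change -1.57 ± 0.32 SE, adjusted p = 0.0091). Without control library 2 the adjusted p was 0.0512, in a range from 0.000282 to 0.0512.

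The 3 other FACIT genes tested did not pass. Col12a1, a chain of fascia and of the matrix around muscle, read 10439, 11522 and 20283 in control libraries and 18674, 19624 and 26461 in SENP7 siRNA libraries (0.66 ± 0.23 SE, adjusted p = 0.0766). Control library 3 lay above SENP7 siRNA libraries 1 and 2, and without it the adjusted p was 0.00142, in a range from 1.08e-06 to 0.368. Col16a1 read 1009, 839 and 613 against 651, 647 and 590 (-0.35 ± 0.16 SE, adjusted p = 0.144). Without control library 3, the lowest control, its adjusted p was 0.000838, in a range from 0.000838 to 0.367. Col9a3, a cartilage chain, read 10.1, 6.68 and 0.973 against 14.2, 16.0 and 11.4 (1.42 ± 0.59 SE, adjusted p = 0.124), and 234 of its exon bases overlap Tcfl5 on the other strand. Col9a1 and Col9a2 were not tested, with 1 and 0 reads in the control group and 0 and 2 in the other.

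The multiplexins moved in opposite directions. These are basement membrane collagens, and the end of the type XVIII chain is released as endostatin. Col18a1 read 14237, 12851 and 7780 in control libraries and 6029, 5465 and 5431 in SENP7 siRNA libraries. All SENP7 siRNA libraries were below all controls, of which library 3 was the lowest, and the fall was 2.06-fold (log2 fold change -0.997 ± 0.19 SE, adjusted p = 0.00721). With no filter on low values its adjusted p was 0.114, in a range from 5.68e-08 to 0.114. Col15a1, which is known for its place in the basement membrane of muscle fibres and vessels, read 2.02, 6.68 and 7.78 in control libraries and 24.0, 22.5 and 33.2 in SENP7 siRNA libraries. The groups did not overlap, and the rise was 4.83-fold on the means (2.21 ± 0.43 SE, adjusted p = 0.0075), from 16 and 83 reads.

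Of the transmembrane collagens, 1 of 4 fell and none rose. That is 25% of the class, near the 20.9% of all genes tested that were called. Col13a1, a chain found at the neuromuscular junction, read 163, 202 and 278 in control libraries and 96.7, 112 and 80.5 in SENP7 siRNA libraries, 2.22-fold lower without overlap (log2 fold change -1.12 ± 0.20 SE, adjusted p = 0.00538), and its call held in each alternative. Col17a1, an epithelial chain, read 31.2, 27.8 and 35 against 23.1, 10.7 and 21.8 (-0.79 ± 0.30 SE, adjusted p = 0.0994). Col25a1, which muscle makes and motor axons need to grow in, read 352, 559 and 386 against 605, 564 and 546 (0.43 ± 0.15 SE, adjusted p = 0.0801). For Col25a1 control library 2 lay within the SENP7 siRNA range, and without it the adjusted p was 0.00795, in a range from 0.00795 to 0.22.

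Col23a1 varied more between libraries than between groups. It read 397, 348 and 2353 in control libraries and 536, 504 and 1570 in SENP7 siRNA libraries, with library 3 of each group several times above the others (0.13 ± 0.81 SE, adjusted p = 0.933). The means had the opposite order, 1033 ± 1144 in control libraries and 870 ± 606 with SENP7 siRNA (SD, n = 3). Without both libraries numbered 3 its log2 fold change was 0.48 and its adjusted p was 0.00167, in a range from 0.00167 to 0.972. Over the 35 collagen genes tested, control library 3 was the highest control for 12 and the lowest for 18, and library 3 was the highest of both groups for 7.

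The remaining chains were Col7a1, Col26a1 and Col28a1. Col7a1, the anchoring fibril chain of skin, read 523, 534 and 583 in control libraries and 671, 687 and 734 in SENP7 siRNA libraries, without overlap (log2 fold change 0.35 ± 0.07 SE, adjusted p = 0.0108). Without control library 2 its adjusted p was 0.0528, in a range from 0.00204 to 0.0528. Col26a1 read 44.3, 55.6 and 41.8 against 104, 107 and 111, 2.27-fold higher (1.17 ± 0.16 SE, adjusted p = 0.00128), and its call held in each alternative. Col28a1 read 37.3, 30.0 and 35 against 29.3, 34.2 and 47.4, with overlapping groups (0.09 ± 0.22 SE, adjusted p = 0.813).

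Genes that make, trim, bind and regulate collagens are given next from 7 lists, beside the 10.2% of all genes that rose and the 10.7% that fell. None of the 19 genes of procollagen folding and modification tested rose and 5 fell, with a median log2 fold change of -0.17. P3h4, a member of the prolyl 3-hydroxylase family, read 5353, 4915 and 4411 in control libraries and 3860, 3696 and 3567 in SENP7 siRNA libraries (-0.40 ± 0.08 SE, adjusted p = 0.00785), and it passed in each alternative. The other 4 were the prolyl 4-hydroxylase subunits P4ha2 (-0.70, adjusted p = 0.024) and P4ha1 (-0.45, adjusted p = 0.043), the chaperone Fkbp10 (-0.34, adjusted p = 0.017) and the lysyl hydroxylase Plod1 (-0.37, adjusted p = 0.0194). Each of these 4 missed the threshold without some single libraries. Without control library 2 the adjusted p was 0.112 for P4ha2, in a range from 1.34e-07 to 0.206, and 0.172 for P4ha1, in a range from 4.54e-06 to 0.172. It was 0.0742 for Fkbp10, in a range from 0.000197 to 0.0742, and 0.0898 for Plod1, in a range from 3.76e-05 to 0.0898. The collagen chaperone Serpinh1 was among the 14 that did not pass.

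Of 11 genes of procollagen processing and crosslinking, 2 rose and 4 fell, with a median of -0.43. Lox, the lysyl oxidase that crosslinks fibrils, read 25360, 25870 and 17893 in control libraries and 13760, 13481 and 13504 in SENP7 siRNA libraries, all lower (-0.74 ± 0.13 SE, adjusted p = 0.00487). Adamts14, which removes procollagen N-propeptides, read 5511, 5962 and 5458 against 3561, 3436 and 3205 (-0.73 ± 0.07 SE, adjusted p = 0.000174). Pcolce2, an enhancer of C-propeptide removal, fell too (-0.78 ± 0.10 SE, adjusted p = 0.00112), and these 3 passed in each alternative. Loxl3 fell (-0.43, adjusted p = 0.0167), with 0.0539 without control library 1 and 0.0685 and 0.0711 without SENP7 siRNA libraries 1 and 2, in a range from 0.000113 to 0.0711. Pcolce (0.32, adjusted p = 0.0194) and Loxl1 (0.24, adjusted p = 0.0296) rose. Without control library 2 their adjusted p was 0.0914 and 0.122, in ranges from 0.00133 to 0.0914 and from 0.00607 to 0.122.

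Of 9 collagen receptors, 5 rose and 1 fell. Itga10, a collagen-binding integrin subunit known from cartilage, read 832, 821 and 974 in control libraries and 366, 351 and 480 in SENP7 siRNA libraries (log2 fold change -1.14 ± 0.12 SE, adjusted p = 0.000496), and it passed in each alternative. The integrin subunit Itga11 read 656, 683 and 967 against 1130, 1138 and 1237 (0.62 ± 0.13 SE, adjusted p = 0.0116). Itga11 and the collagen uptake receptor Mrc2 (0.32, adjusted p = 0.0137) had adjusted p of 0.0651 and 0.0678 without control library 2, the highest over the alternatives, whose lowest were 3.89e-06 and 0.00104. The adhesion receptor Adgrg1 (0.57, adjusted p = 0.025) had 0.102 without SENP7 siRNA library 1, in a range from 0.000531 to 0.102, and its log2 fold change was 0.37 without control library 3. Itga1 (0.81, adjusted p = 0.0269) and Adgrg6 (0.22, adjusted p = 0.0456) had 0.104 without control library 2 and 0.137 without SENP7 siRNA library 3, the highest over the alternatives, whose lowest were 0.00912 and 0.0206.

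Of 9 fibril-associated proteins, 5 rose and 1 fell, with a median of 0.98. Those that rose were all small leucine-rich proteins of the matrix. The family did not rise as a whole, as its members Bgn (-0.09, adjusted p = 0.535) and Podn (0.75, adjusted p = 0.172) did not pass. Fmod, which binds fibrils during their growth, read 194, 146 and 209 in control libraries and 500, 478 and 630 in SENP7 siRNA libraries (1.55 ± 0.15 SE, adjusted p = 0.000306). Prelp read 862, 759 and 1703 against 3692, 3780 and 4523 (1.94 ± 0.25 SE, adjusted p = 0.0012). Ogn (0.98, adjusted p = 0.000143), Aspn (1.54, adjusted p = 0.00194) and Dcn (1.05, adjusted p = 0.00571) rose as well, without overlap between the groups. Of these 5 only Dcn missed the threshold in an alternative, with 0.0983 when no filter was set, in a range from 8.25e-08 to 0.0983. Fn1, which encodes fibronectin, read 261843, 275680 and 280793 against 168157, 156968 and 203638 (-0.64 ± 0.12 SE, adjusted p = 0.0056), and it missed the threshold after quantile normalization (0.0637, in a range from 4.21e-08 to 0.0637). P4ha1, Pcolce, Loxl1, Itga1, Adgrg6, Dcn, Fn1, Bgn and Podn were named after their values were seen.

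None of the 3 collagen-degrading proteases tested, Mmp2, Mmp14 and Ctsk, passed the test. In the list of TGF-beta ligands and matrix response, 2 of 12 genes rose and 2 fell. The receptor Tgfbr1 read 756, 827 and 1132 in control libraries and 1480, 1519 and 1608 in SENP7 siRNA libraries (0.78 ± 0.13 SE, adjusted p = 0.00385), and the signal transducer Smad3 rose (0.34, adjusted p = 0.0121). The inhibitor Smad7 (-0.61, adjusted p = 0.00532) and the ligand Tgfb1 (-0.34, adjusted p = 0.00835) fell. Of these 4 only Smad3 missed the threshold in an alternative, with 0.0522 without control library 2, in a range from 0.000763 to 0.0522.

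None of 8 transcription factors known to act on collagen genes rose and 3 fell. Mef2c, a muscle and cartilage factor, read 11295, 14359 and 14711 in control libraries and 9676, 9226 and 8098 in SENP7 siRNA libraries (-0.57 ± 0.11 SE, adjusted p = 0.00773), and it passed in each alternative. The cartilage factor Sox9 fell (-0.44, adjusted p = 0.0192), with 0.0877 without control library 2, in a range from 0.000313 to 0.0877. The tendon factor Mkx, at 13.4 to 15.1 normalized counts in control libraries and 5.32 to 8.56 with SENP7 siRNA, fell (-1.05, adjusted p = 0.0366), with 0.121 without SENP7 siRNA library 1, in a range from 0.0185 to 0.165. Mkx met the minimum through the control libraries alone, so a fall was favoured by the filter. Runx2, Sp7, Sox5, Scx and Creb3l1 did not pass.

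**Figure D5:**
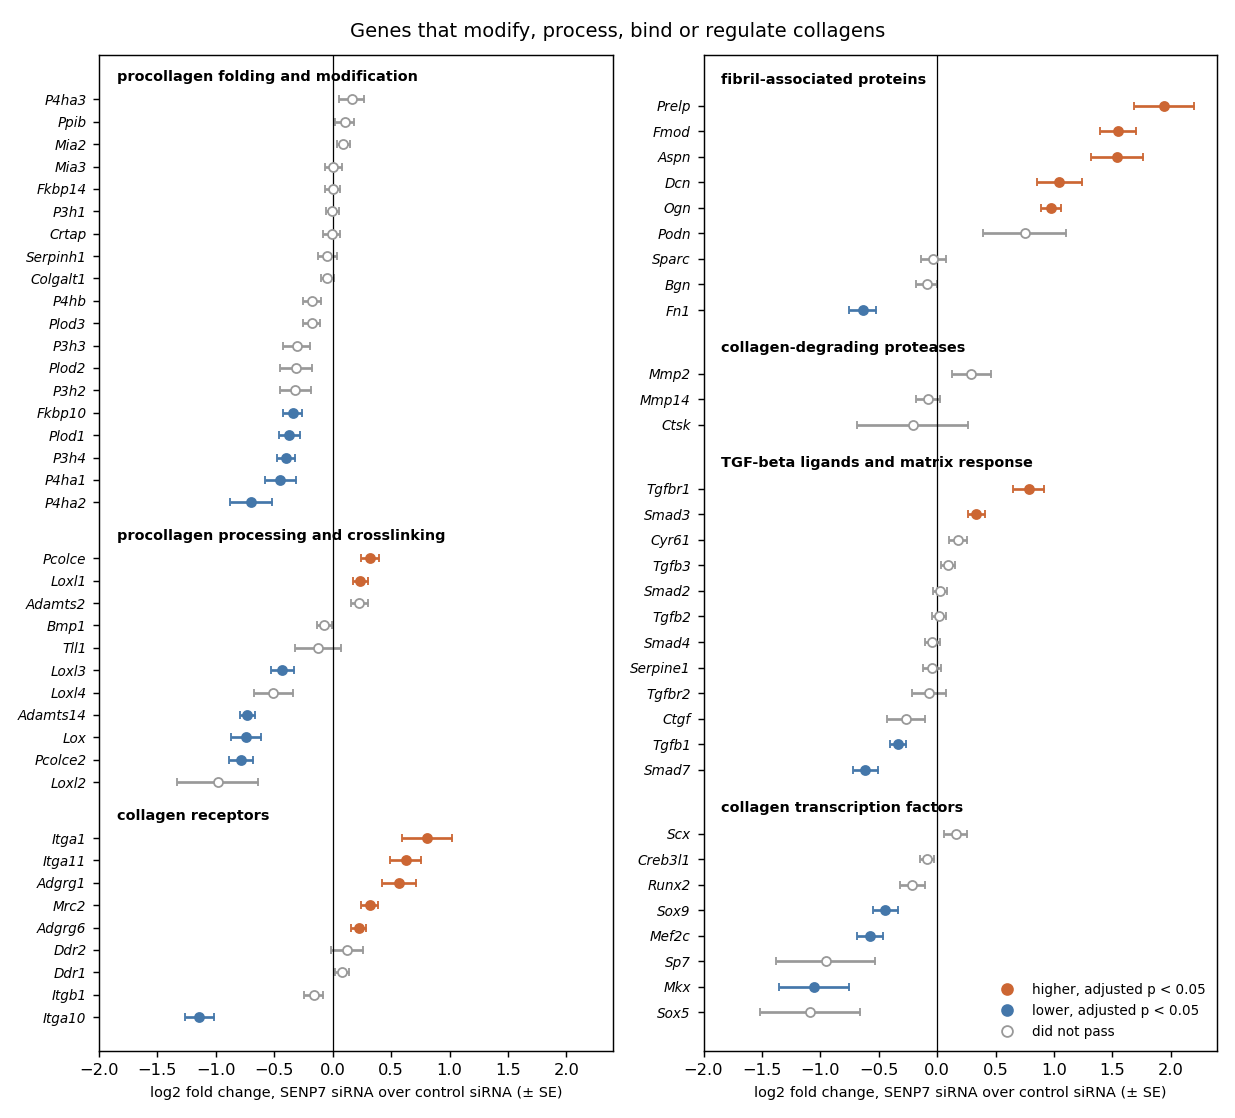
Log2 fold change (SENP7 siRNA over control siRNA, ± SE) of the tested genes of 7 lists around collagen, 1 row per gene; the horizontal axes are in log2 units and filled points passed the test. Of the folding genes 5 lie to the left and none of the filled points to the right, and the 5 filled points to the right among the fibril-associated proteins reach 1.94 for Prelp.

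The labelled cell type was checked against its markers. Counts of markers that rose or fell, here and in the next paragraph, stand beside the 10.2% of all genes tested that rose and the 10.7% that fell. For the myotube markers 22.22% passed, near the 20.9% of all genes tested. All 9 myotube markers were tested, 2 rose (Ckm and Actn2) and none fell, and their summed level was 675700 to 709900 in control libraries and 737300 to 823700 with SENP7 siRNA. Actn2 had adjusted p = 0.052 without SENP7 siRNA library 1. The groups did not overlap for 5 of the 9 myotube markers, all of them higher with SENP7 siRNA. Of all genes tested, 19.3% were higher without overlap. The median log2 fold change of the myotube markers was 0.28. Of the 4 muscle progenitor markers 2 were tested and Pax7 rose, at 521, 521 and 555 normalized counts in control libraries and 651, 708 and 892 with SENP7 siRNA (0.48, adjusted p = 0.0159). Without control library 2 its adjusted p was 0.0736, in a range from 0.00127 to 0.0736. The progenitor markers summed to 870 to 940 in control libraries and 954 to 1218 with SENP7 siRNA, with Msgn1 at 0. Of the 8 fibroblast markers 6 were tested, 3 fell (Ly6a, Cd34 and Twist2) and 1 rose (Dpt). Their summed level was 3400 to 3777 in control libraries and 2383 to 2723 with SENP7 siRNA, with Tcf21 at 0 throughout. Twist2 and Dpt missed the threshold without single libraries, with adjusted p up to 0.113 without SENP7 siRNA library 2 for Twist2 and up to 0.126 without control library 2 for Dpt.

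Of 8 chondrocyte markers 2 were tested and only Sox9 passed, lower with SENP7 siRNA. Their summed level was 1130 to 1452 in control libraries and 891 to 1074 with SENP7 siRNA, with Snorc at 0. None of the 5 osteoblast markers tested of 7 passed (1274 to 1435 against 1091 to 1349, summed), and Ibsp was at 0. Of these, Alpl was lower without overlap and close to the threshold (-1.05, adjusted p = 0.0557), from 63 reads in the control group and 30 with SENP7 siRNA. Tenocyte markers summed to 3502 to 4646 against 4206 to 4554, with Mkx lower among 2 of 3 tested. Acta2, a smooth muscle marker that young myotubes also make, rose among 2 of 4 tested (52670 to 75160 against 81870 to 95750, summed). Its adjusted p was 0.112 without SENP7 siRNA library 2. Endothelial markers summed to 10 to 17.5 against 20.8 to 25.7, of which Tek alone could be tested and rose, with adjusted p = 0.0945 without SENP7 siRNA library 2. Tek met the minimum through the SENP7 siRNA libraries alone, so a rise was favoured by the filter. No macrophage, adipocyte or Schwann cell marker passed, nor did any of the 4 markers of dividing cells. The part of other cells in the collagen changes was not tested.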

How the data were processed

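Polyadenylated RNA of 6 libraries, 3 per group, was made with a directional kit and sequenced in a common run, per the labels' protocols. The genome build was GRCm38.p6, and Trim Galore 0.6.4, STAR 2.6.1d, DESeq2 and featureCounts 1.6.4 are listed as tools, per the submitters' processing notes. Neither the strand setting of the counting nor the annotation release is named in these sources. The authors deposited 1 table with a normalized count signal per library, their log2 fold change with its standard error, a Wald score, a p-value and its adjusted value, per the file headers. Each library's values were multiples of a single step, for 100% of its values above 0 within 0.1 read, so that reads could be recovered. Exon lengths equalled those of GENCODE M21 for the 54349 identifiers found in both.

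Tests used limma 3.58.1 (R 4.3.3), robust with an intensity trend, on log2 of the normalized count plus 1, for genes reaching 10 in at least 3 libraries. The group was the sole term, p-values were two-sided and adjusted by Benjamini-Hochberg over 14668 genes, and the threshold was 0.05. Fold changes on this scale understate the change of low genes, and p-values measure the spread between these samples. Simulated data held 200 changed genes of 14302. Changes were given only to genes that averaged 50 or more normalized counts in control libraries. There this test recovered 71.6% of the 1.5-fold, 95.5% of the 2-fold and 100% of the 4-fold changes, with 16 false calls of 194. These recovery rates do not cover collagen genes below that level, such as Col24a1, Col14a1, Col20a1, Col19a1 and Col15a1. Simulated counts were drawn separately for each gene, so no simulated library stood apart as the libraries numbered 3 did. The share of changed genes was also smaller than the 20.9% called in these data. The rates of recovery and false calls may therefore differ for these libraries. The alternatives were edgeR 4.0.16, DESeq2 1.42.0 and limma-voom on recovered reads, other scalings, filters and pseudocounts, the replicate number as a block, and each library left out. Leaving out both libraries numbered 3 was chosen after seeing the data. The ranges of adjusted p include that run, and the counts of alternatives passed do not.

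The collagen genes and all lists were chosen with earlier results of these data known. Values were given for collagen genes that met the filter and for the 4 list members lowest in adjusted p. Upstream sequences came from RefSeq, which had an entry for 35 of the 44 genes.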

Additional observations from a re-analysis of the deposited data

How the results depend on the processing

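With edgeR, edgeR with TMM, DESeq2, limma-voom, scaling to library totals, quantile normalization, other filters and other pseudocounts, 10 to 16 collagen genes rose and 4 to 5 fell, against 14 and 5 as reported, and no scaling moved the median of all genes by more than 0.0238. Leaving out 1 library each time gave 1619 to 4702 genes called in all (3062 as reported), 10 to 17 collagen genes higher and 4 to 8 lower, and 8 to 15 genes of the collagen lists higher and 10 to 21 lower (14 and 16 as reported). The low list counts came without control library 2 or SENP7 siRNA library 2 or 3 (8, 9 and 9 higher) and without control library 1 or 2 or SENP7 siRNA library 1 or 2 (10 lower each). The count over all genes was 1633 without control library 2, 1660 and 1619 without SENP7 siRNA libraries 1 and 2, and 4702 without control library 3. Without both libraries numbered 3, 4949 genes were called, 9 collagen genes fell and 26 list genes fell. At an adjusted p below 0.01, 1398 genes were called, 9 collagen genes rose, and 6 list genes rose and 9 fell. With mitochondrial and ribosomal RNA genes left out of the total, basement membrane collagens were 0.107% of reads with SENP7 siRNA. The signs of some genes with changes near 0 turned. With 1 library left out each time, Col4a5 ranged from -0.0161 to 0.176, Col1a2 from -0.0998 to 0.129, Col5a2 from -0.134 to 0.0263, Col5a3 from -0.0331 to 0.275, Col23a1 from -0.404 to 1.01 and Col28a1 from -0.099 to 0.239. Without both libraries numbered 3, Col4a5 was at -0.106, Col1a2 at -0.0867, Col5a3 at -0.00701 and Col28a1 at -0.0779. Col28a1 was at -0.0011 after quantile normalization, and Col23a1 at -0.253 with edgeR, -0.244 with TMM and -0.242 with DESeq2. The cause of these changes was not tested. With the replicate number as a block, 4175 genes were called, with 20 collagen genes higher and 7 lower and 16 list genes higher and 20 lower. Libraries of the same number correlated at 0.13, 0.0624 and 0.251 in their deviations from the group means. Control library 1 correlated best with SENP7 siRNA library 2 (0.141), while control libraries 2 and 3 correlated best with the library of their own number. Control library 3 correlated at -0.1498 and -0.1596 with SENP7 siRNA libraries 1 and 2. The labels name no batch, so the numbers were not taken to pair the libraries. Whether the libraries numbered 3 share a batch was not tested. Depth limits the 9 collagen genes not tested and low ones such as Col19a1 (35 and 91 reads).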
